A study of Mus musculus with 6 samples.

Results

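The genes described here are 47 components of the Wnt pathway other than its ligands: the frizzled receptors and co-receptors, the R-spondin system, the secreted antagonists, the destruction complex and dishevelled proteins, the TCF/LEF transcription factors, the feedback targets and the proteins of Wnt secretion. They were taken by symbol, and 47 of the 54532 named genes of the deposited table matched, 1 row each. All RNA came from C2C12, a line of mouse myoblasts that fuse into myotubes when serum is withdrawn. The comparison was between 3 libraries labelled wild-type, which had no treatment, and 3 labelled Gmppb-KO, all harvested after 2 days of culture. The Gmppb-KO cells had received Cas9 plasmids with guides against exons 1 and 5 of Gmppb, had been selected in puromycin at 4 µg per ml and had been grown out as single clones. The labels do not say how many clones the 3 Gmppb-KO libraries stand for, so an effect of the mutation and a difference between clones cannot be told apart. Only the Gmppb-KO cells had the plasmids, the puromycin and the growth as single clones. Effects of these cannot be told apart from that of the mutation either. The labels do not describe the replicates as separate cultures, and p-values cover only the spread between these libraries, which may be technical. The series asks how Gmppb, a subunit of the enzyme that makes GDP-mannose, acts in muscle development.

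Wnt proteins are lipid-modified ligands that bind frizzled receptors together with Lrp5 or Lrp6. Binding stops the destruction complex of Axin, Apc and Gsk3 from marking beta-catenin for degradation, and beta-catenin then works with TCF/LEF factors on target genes, several of which dampen the pathway in return. Receptors such as Ror2 and Ryk carry signals that do not need beta-catenin. In muscle, Wnt signalling is known for its part in the start of the myogenic programme in the embryo and in the change of satellite cells from proliferation to differentiation.

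Total counts in named genes ran from 16011021 to 18566759 per library. Sets of 3 values below follow the order of replicates 1, 2 and 3. Gmppb itself had 18.1, 20.9 and 23.9 CPM (counts scaled to a common, normalized library size) over the wild-type libraries against 20.6, 16.0 and 13.0 CPM over the Gmppb-KO ones, which did not pass the gene test (edgeR adjusted p = 0.459). A count over the whole gene need not show a cut in exons 1 and 5, so this level is a weak check of the labels. Of the defining myoblast markers, Myod1 had between 152 and 163 CPM in wild-type libraries and between 0.326 and 0.560 CPM in Gmppb-KO libraries. Myf5 was between 12.9 and 29.4 CPM in wild-type and between 29.2 and 93.7 CPM in Gmppb-KO libraries, and Des was between 1935 and 5122 CPM over all 6. Also lower were Pax7, a satellite cell factor that fell 10.6-fold from a mean of 6.15 CPM to 0.576 CPM (edgeR adjusted p = 0.00867), and Myog, a factor of differentiation that fell 14.3-fold from 11.3 to 0.785 CPM (edgeR adjusted p = 0.00732). Gmppb-KO replicate 3 stood apart. Genes above the upper quartile of length, 6511 bases, sat 0.831 higher on the log2 scale than genes below the lower quartile in that library, as deviations from the mean of its group, while Gmppb-KO replicates 1 and 2 were at -0.382 and -0.397; the wild-type libraries ran from -0.429 to 0.459.

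Of the 47 members, 36 had enough counts to be tested and 7 passed the edgeR test at an adjusted p under 0.05. Higher in Gmppb-KO libraries were Rspo2, a secreted protein that amplifies Wnt signals, and the receptor Fzd4. Lower were the receptor kinase Ror2, the secreted antagonists Notum, Dkk3 and Sfrp1, and Porcn, the acyltransferase that puts the lipid on Wnt proteins. None of the 7 members of the destruction complex and dishevelled group passed the edgeR test, whether adjusted or at an unadjusted p under 0.05, and 0 passed by limma voom or DESeq2. With a replicate block in the edgeR fit, Ctnnb1 of this group was called higher (adjusted p = 0.0239). Over all 12786 tested genes 5.59% passed, with 2.32% higher and 3.27% lower; among the members tested it was 19.4%. At an unadjusted p under 0.05 there were 14 members, and 20.1% of all tested genes. The share of members is a description only, since 8 of the 36 met the low-count filter in 1 group alone, 5 of the 7 that passed among them. These 5 were Rspo2, in Gmppb-KO libraries, and Ror2, Notum, Dkk3 and Sfrp1, in wild-type libraries. Of the 28 members that met the filter in both groups, 2 passed. The median log2 fold change was 0.164 for the tested members and 0.106 for all tested genes. The median of the members was the same with Ror2, which had no counts in Gmppb-KO libraries, placed at its bound. Without Gmppb-KO replicate 3, 1 member was higher and 4 were lower, of 749 genes called in all, against 715 with all libraries.

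**Figure D1:**
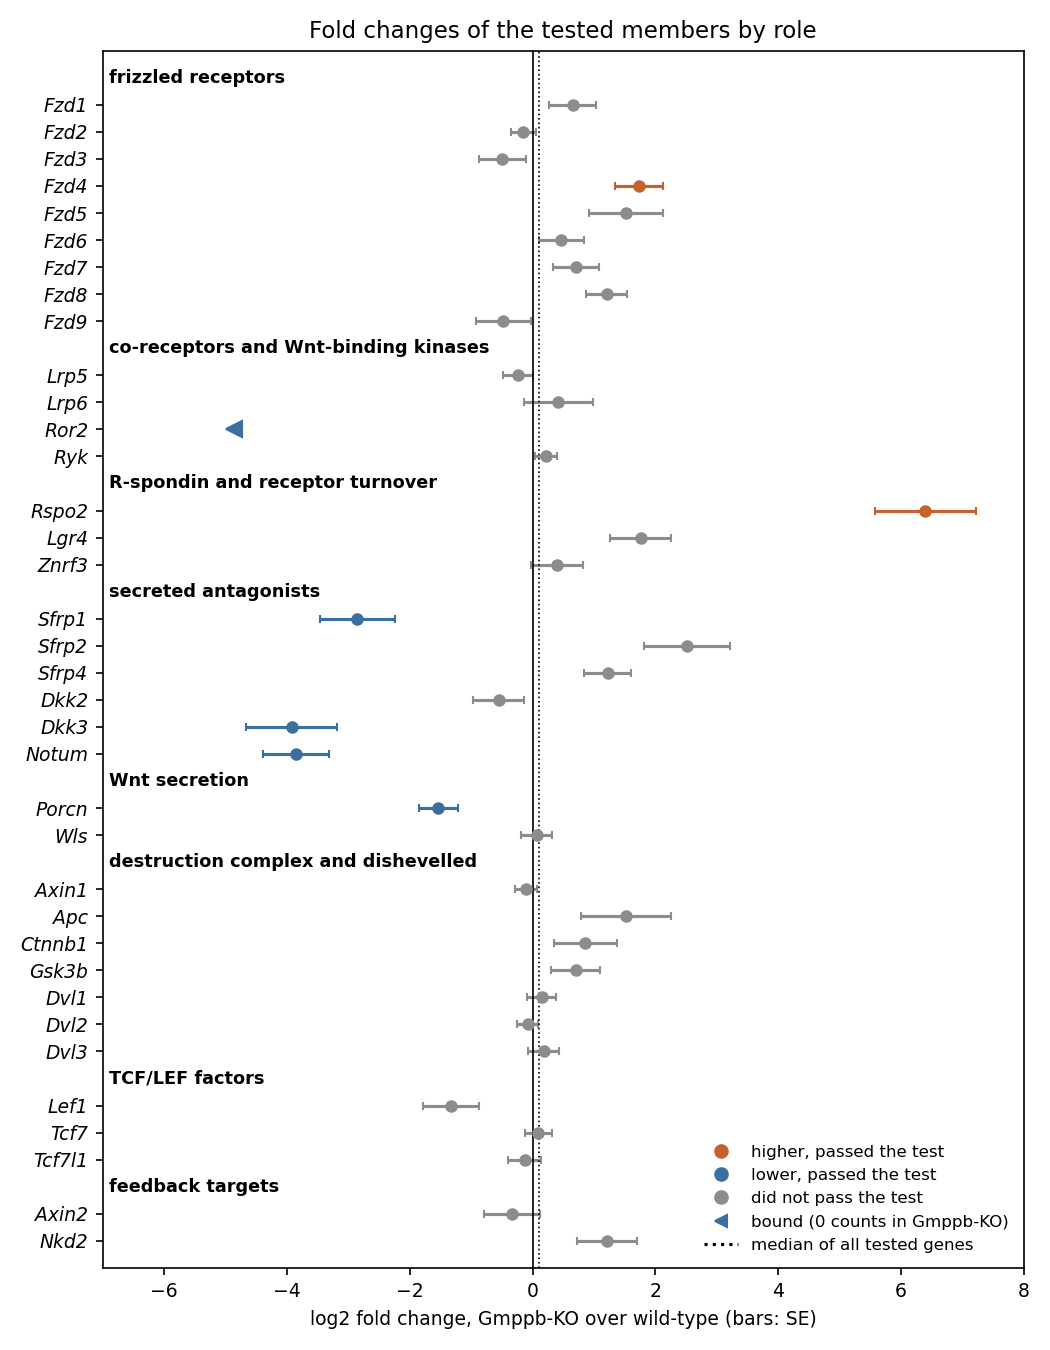
Log2 fold change of Gmppb-KO over wild-type for each of the 36 tested members, in groups by role, with the SE as bars; the triangle is the bound for Ror2 and the dotted line the median of all tested genes. The 7 members that passed the test are coloured, and the members of the destruction complex and dishevelled group lie between -0.10 and 1.52 with none of them coloured.

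The frizzled genes encode the receptors that bind Wnt proteins, and Fzd4 was the 1 of 9 tested that passed. Fzd4 (ENSMUSG00000049791, mm10 chromosome 7, 89404355 to 89413134) measured 24, 20 and 20 counts over the wild-type libraries against 68, 60 and 130 counts over the Gmppb-KO ones. On the CPM scale this was 1.43, 1.35 and 1.17 in wild-type libraries and 3.70, 3.36 and 6.13 in Gmppb-KO libraries. All 3 Gmppb-KO values lay above all 3 wild-type values, and replicate 3 was the highest. Fzd4 rose 3.34-fold (log2 fold change 1.74 ± 0.39 SE, edgeR adjusted p = 0.0396). The call was lost when any 1 of the 6 libraries was left out, under library-size scaling and by limma voom, with adjusted p-values from 0.00565 to 0.167 over the alternatives. Its direction was the same in each of them.

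Fzd2, a receptor for Wnt5a, carried most of the frizzled messenger RNA in 5 of the 6 libraries. Per length, on the scale of the authors' FPKM, Fzd2 stood at 27.1 ± 4.36 in wild-type and 23.4 ± 3.90 in Gmppb-KO libraries (SD, n = 3 each). Its share of the summed frizzled FPKM was 69.1%, 73.5% and 53.7% over the wild-type libraries against 59.6%, 59.9% and 38.2% over the Gmppb-KO ones. The lowest share of each genotype was that of replicate 3, and the groups overlapped. Next in level came Fzd7, known from satellite cells as a receptor of Wnt7a, at 5.06 ± 1.41 and 7.90 ± 3.79 FPKM, Fzd1 at 4.60 ± 2.12 and 6.95 ± 2.16 FPKM, and Fzd6 at 2.89 ± 1.02 and 3.82 ± 1.35 FPKM. Fzd7 and Fzd1 overlapped in both genotypes. Fzd1 was above Fzd6 in each library, with ranges that overlapped over the wild-type libraries but not over the Gmppb-KO ones (5.64 to 9.44 FPKM for Fzd1 and 2.76 to 5.34 FPKM for Fzd6). Fzd8, Fzd9, Fzd3, Fzd5 and Fzd4 each had a wild-type mean of at most 0.538 FPKM, and Fzd10 had 0 counts in every library. Fzd4 had a wild-type mean of 0.199 ± 0.0226 FPKM and Fzd5 one of 0.217 ± 0.140 FPKM, within its spread. The summed frizzled level was between 40.1 and 43.1 FPKM in wild-type and between 42.8 and 49.4 FPKM in Gmppb-KO libraries.

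**Figure D2:**
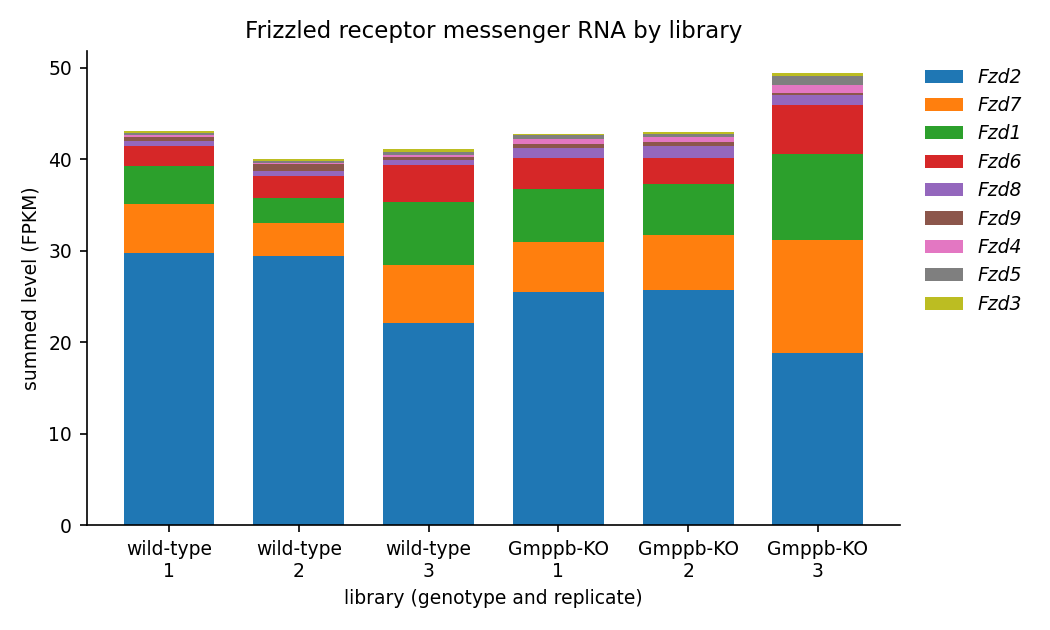
Level of each frizzled gene in each library as the authors' FPKM, stacked, so that the height of a bar is the summed level. Fzd2 is the largest block in all 6 libraries, and the summed level lies between 40.1 and 49.4 FPKM.

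Fzd5 and Fzd8 were higher in every Gmppb-KO library than in any wild-type library but did not pass. Fzd8 measured 1.72, 1.89 and 1.70 CPM over the wild-type libraries against 3.81, 4.76 and 3.72 CPM over the Gmppb-KO ones. The values within each genotype lay close together and the gap between the genotypes was wider (log2 fold change 1.21 ± 0.34, edgeR adjusted p = 0.0857). Fzd5 measured 0.891, 0.945 and 2.63 CPM over the wild-type libraries against 2.67, 2.80 and 7.40 CPM over the Gmppb-KO ones, with replicate 3 the highest in both genotypes. Its groups were separated by a margin smaller than the spread within either (log2 fold change 1.52 ± 0.60, edgeR adjusted p = 0.215). Over all tested genes the 3 and 3 libraries did not overlap in 26.1%, in 13.1% with Gmppb-KO higher and in 13% with it lower; among the members it was 14 of 36, 8 higher and 6 lower. The log2 fold changes of Fzd1, Fzd2, Fzd3, Fzd6, Fzd7 and Fzd9 were 0.65, -0.15, -0.49, 0.47, 0.71 and -0.47, and their groups overlapped. That of Fzd2 turned to 0.01 under library-size scaling.

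Among the co-receptors, Ror2 lost all its reads. Ror2 (ENSMUSG00000021464, chromosome 13, 53109312 to 53286124), a receptor tyrosine kinase for Wnt5a, had 20, 19 and 35 counts in wild-type replicates 1, 2 and 3 and 0 counts in each Gmppb-KO library. The wild-type values were 1.19, 1.28 and 2.05 CPM, and the Gmppb-KO libraries together allow at most 0.0522 CPM, at 3 counts over the group. The level was at least 29.1-fold lower, and edgeR called the fall (adjusted p = 0.00698), as did each of the 14 alternatives. Its close relative Ror1 was nearly absent, with 1 count in wild-type and 8 in Gmppb-KO libraries together, and was not tested. That ratio, 6.79, has an exact 95% binomial interval from 0.910 to 301, for counting error only.

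Ryk, a receptor with a Wnt-binding domain and an inactive kinase, was the most abundant of this group per length. It measured 104, 109 and 95.7 CPM over the wild-type libraries against 116, 107 and 136 CPM over the Gmppb-KO ones, and the groups overlapped. Its log2 fold change was 0.22 ± 0.18, with a 95% interval (normal approximation from the SE, likely too narrow at n = 3) from -0.13 to 0.57. Lrp5 and Lrp6, the co-receptors of the beta-catenin branch, did not pass either. Lrp5 averaged 51.0 ± 12.6 CPM over the wild-type libraries and 43.4 ± 8.30 CPM over the Gmppb-KO ones (SD, n = 3 each), with a log2 fold change of -0.23 ± 0.25. Lrp6 measured 11.9, 10.4 and 13.9 CPM over the wild-type libraries against 5.71, 10.6 and 32.0 CPM over the Gmppb-KO ones. Gmppb-KO replicate 3 was the highest and Gmppb-KO replicate 1 the lowest of all 6. The log2 fold change was 0.42 with all libraries and -0.62 without Gmppb-KO replicate 3.

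**Figure D3:**
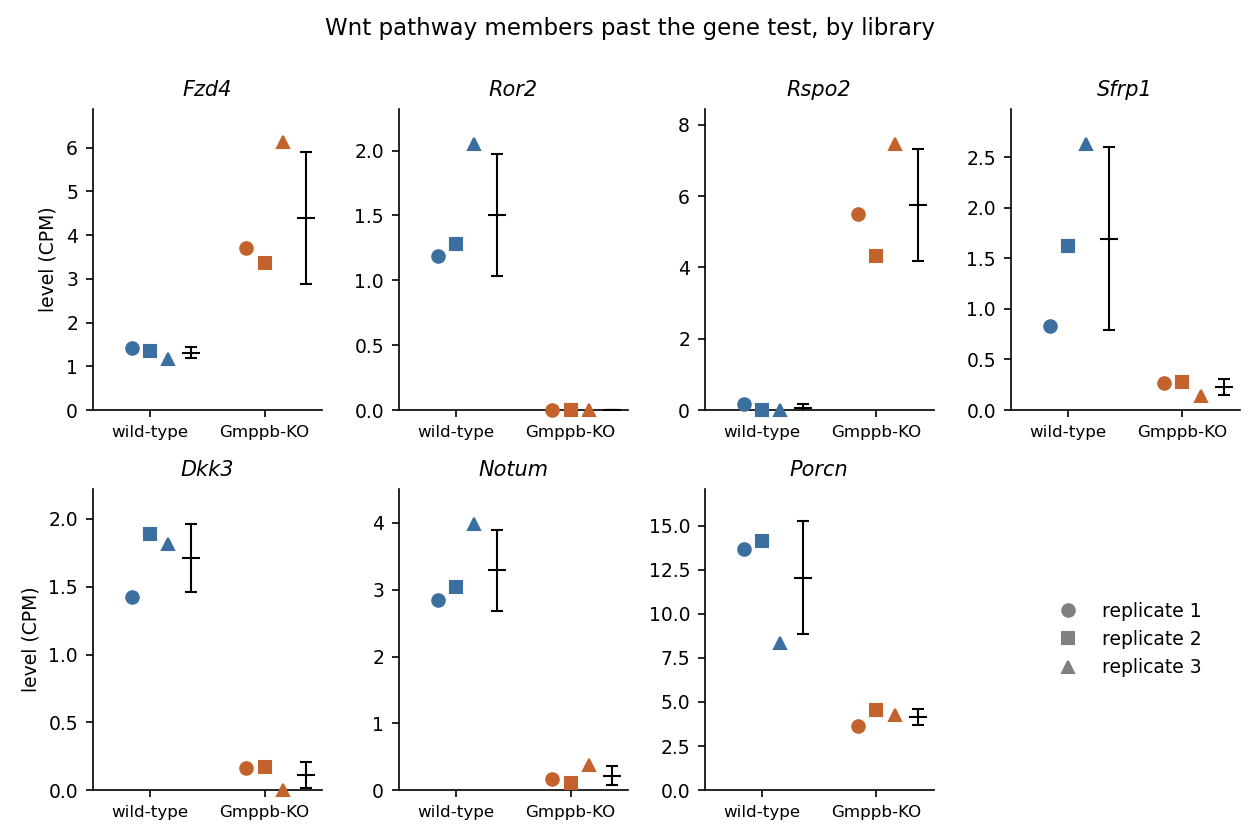
Level in CPM of the 7 members that passed the test, 1 panel a gene with its own axis from 0; symbols mark replicates 1, 2 and 3, and the bars to the right give the mean ± SD (n = 3). In each panel the Gmppb-KO values lie wholly above (Fzd4, Rspo2) or wholly below (the other 5) the wild-type values.

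RefSeq promoter windows (build GRCm38.p6, which is mm10) were at hand for 30 of the 47 members, in 36 windows of 250 bases before to 50 after the start. They were searched on both strands for the TCF/LEF core in the forms CTTTGAT and CTTTGAA and for the E-box CANNTG, the motif of Myod1 and its relatives. No E-box can share a base with a TCF/LEF core, while both forms of the core can share an end base. Of all 32851 windows 8.65% held a TCF/LEF core, and of the 36 member windows 2 did, those of Sp5 and Dkk1. Both genes had 0 counts in all 6 libraries. An E-box was in 72.3% of all windows and in 21 of the 36. The 250 bases before the start are shown for the pair with a TCF/LEF core and for Fzd4 and Ror2, which passed the test in opposite directions. Capitals mark every match of the searched motifs.
Fzd4, on the plus strand at chr7:89404116-89404365, with no match of any of the motifs.
Fzd4: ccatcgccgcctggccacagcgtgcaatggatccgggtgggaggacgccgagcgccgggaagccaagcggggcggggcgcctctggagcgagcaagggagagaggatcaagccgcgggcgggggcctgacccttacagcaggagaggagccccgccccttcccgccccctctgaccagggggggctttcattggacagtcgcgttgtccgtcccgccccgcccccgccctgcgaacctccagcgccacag
Ror2, on the minus strand at chr13:53286125-53286374, with 1 E-box.
Ror2: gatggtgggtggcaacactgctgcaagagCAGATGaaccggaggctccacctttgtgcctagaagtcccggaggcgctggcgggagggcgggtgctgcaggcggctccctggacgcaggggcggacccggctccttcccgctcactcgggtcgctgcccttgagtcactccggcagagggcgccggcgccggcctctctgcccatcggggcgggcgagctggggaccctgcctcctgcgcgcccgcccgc
Sp5, on the plus strand at chr2:70474673-70474922, with an E-box and the core CTTTGAT that starts at base -104.
Sp5: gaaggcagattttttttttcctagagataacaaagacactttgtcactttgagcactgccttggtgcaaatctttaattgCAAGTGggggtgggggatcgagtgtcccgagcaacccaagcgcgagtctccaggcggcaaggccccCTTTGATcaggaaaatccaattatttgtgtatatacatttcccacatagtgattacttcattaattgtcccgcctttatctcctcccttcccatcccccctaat
Dkk1, on the minus strand at chr19:30549497-30549746, with the core CTTTGAA that starts at base -117.
Dkk1: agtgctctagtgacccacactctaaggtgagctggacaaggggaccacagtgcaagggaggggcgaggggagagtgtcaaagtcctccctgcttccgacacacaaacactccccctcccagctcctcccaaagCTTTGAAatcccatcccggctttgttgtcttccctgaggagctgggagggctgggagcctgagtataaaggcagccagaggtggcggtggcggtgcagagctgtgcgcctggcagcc
A match is only a run of letters, and a window without one says nothing about the factors.

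In the R-spondin system Rspo2 went from almost no reads to a clear level. R-spondins bind Lgr receptors and keep the ubiquitin ligases Znrf3 and Rnf43 from removing frizzled receptors from the cell surface. Rspo2 (ENSMUSG00000051920, chromosome 15, 43020794 to 43170826) measured 3, 0 and 0 counts over the wild-type libraries against 101, 77 and 158 counts over the Gmppb-KO ones. In Gmppb-KO libraries this was 5.49, 4.31 and 7.45 CPM, and every one of them was far above the 0.178 CPM of wild-type replicate 1. The ratio of the pooled counts was 95.0, with an exact 95% binomial interval from 32.2 to 463, and edgeR called the rise (adjusted p = 0.00340), as did each of the 14 alternatives. With a mean of 1.09 ± 0.286 FPKM it moved from place 38 to place 22 among the 47 members per length.

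Lgr4, an R-spondin receptor, was higher in every Gmppb-KO library and did not pass. It measured 5.70, 4.12 and 6.03 CPM over the wild-type libraries against 9.52, 11.4 and 32.7 CPM over the Gmppb-KO ones. Replicate 3 was 3.13 times the mean of the other 2 of its genotype (log2 fold change 1.76 ± 0.49, edgeR adjusted p = 0.0894). Lgr4 was called by DESeq2, without the low-count filter, with a replicate block and without Gmppb-KO replicate 1, with adjusted p-values from 0.00735 to 0.281 over the alternatives. Znrf3, a target of beta-catenin that removes frizzled receptors, had 5.71 ± 0.424 and 7.51 ± 4.34 CPM (log2 fold change 0.40 ± 0.42, and -0.23 without Gmppb-KO replicate 3). Its partner Rnf43 had 8, 0 and 3 counts over the wild-type libraries and 0, 3 and 0 over the Gmppb-KO ones, which overlapped, and was not tested. Lgr5, a stem cell marker in several epithelia, had 2 counts in wild-type and 0 in Gmppb-KO libraries, Rspo1 had 1 and 0, and Rspo3 had 0 in all 6.

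Of the 6 secreted antagonists tested, Notum, Dkk3 and Sfrp1 fell, while Sfrp2 and Sfrp4 were higher in every Gmppb-KO library without passing. Over all tested genes 5.59% passed, and the libraries did not overlap in 26.1%. Notum, Dkk3 and Sfrp1 met the low-count filter in wild-type libraries alone, and Sfrp2 in Gmppb-KO libraries alone, so the count is a description only. Notum (ENSMUSG00000042988, chromosome 11, 120653788 to 120661175), an enzyme that removes the lipid from Wnt proteins and is itself a target of beta-catenin, measured 48, 45 and 68 counts over the wild-type libraries against 3, 2 and 8 counts over the Gmppb-KO ones. The values were 2.85, 3.04 and 3.98 CPM against 0.163, 0.112 and 0.377 CPM, wide apart in all libraries. Notum fell 14.4-fold (log2 fold change -3.85 ± 0.54, edgeR adjusted p = 0.00479), and each of the 14 alternatives called it too. The annotated antisense gene Notumos covers 29.4% of its exon bases, and without strand its reads cannot be told from those of Notum. Notumos had 5, 3 and 0 counts in wild-type libraries and 0 in Gmppb-KO libraries.

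Dkk3 (ENSMUSG00000030772, chromosome 7, 112116017 to 112159057), a dickkopf family member whose effect on Wnt signals depends on the cell, measured 24, 28 and 31 counts over the wild-type libraries against 3, 3 and 0 counts over the Gmppb-KO ones. It fell 15.1-fold, from 1.71 ± 0.249 to 0.110 ± 0.0956 CPM (edgeR adjusted p = 0.0188). The call was lost without wild-type replicate 1, wild-type replicate 2 or Gmppb-KO replicate 2; adjusted p-values ran from 1.68e-04 to 0.0695 over the alternatives. Sfrp1 (ENSMUSG00000031548, chromosome 8, 23411502 to 23449632), which binds Wnt proteins through a domain like that of the frizzled receptors, measured 14, 24 and 45 counts over the wild-type libraries against 5, 5 and 3 counts over the Gmppb-KO ones. The wild-type values were uneven, at 0.831, 1.62 and 2.63 CPM, and the Gmppb-KO values were 0.272, 0.280 and 0.141 CPM. Sfrp1 fell 7.22-fold (edgeR adjusted p = 0.0310). That call held without wild-type replicate 1 but was lost when any other library was left out, under library-size scaling and by limma voom (adjusted p-values from 0.00353 to 0.115).

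Sfrp2, of the same family as Sfrp1, measured 2, 1 and 7 counts over the wild-type libraries against 18, 14 and 38 counts over the Gmppb-KO ones. In CPM these were 0.119, 0.0675 and 0.410 against 0.979, 0.784 and 1.79, and replicate 3 was the highest of each genotype (log2 fold change 2.51 ± 0.70, edgeR adjusted p = 0.0872). Sfrp4 measured 1.60, 1.62 and 1.58 CPM over the wild-type libraries against 3.54, 2.63 and 5.09 CPM over the Gmppb-KO ones (log2 fold change 1.23 ± 0.38, edgeR adjusted p = 0.124). The 3 wild-type values of Sfrp4 were nearly equal, and the Gmppb-KO values spread over a wider range above them. Dkk2, which binds Lrp6, had the highest mean FPKM of the antagonists in both genotypes, although Notum was above it in wild-type replicate 2. It measured 9.15, 4.45 and 8.54 CPM over the wild-type libraries against 3.92, 3.86 and 7.31 CPM over the Gmppb-KO ones, with overlapping groups (log2 fold change -0.55 ± 0.41, edgeR adjusted p = 0.449). Dkk1, Sfrp5 and Wif1 had 0 counts in all 6 libraries, which allows, at 3 counts over a group, at most 0.0615 CPM for wild-type and 0.0522 CPM for Gmppb-KO.

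**Figure D4:**
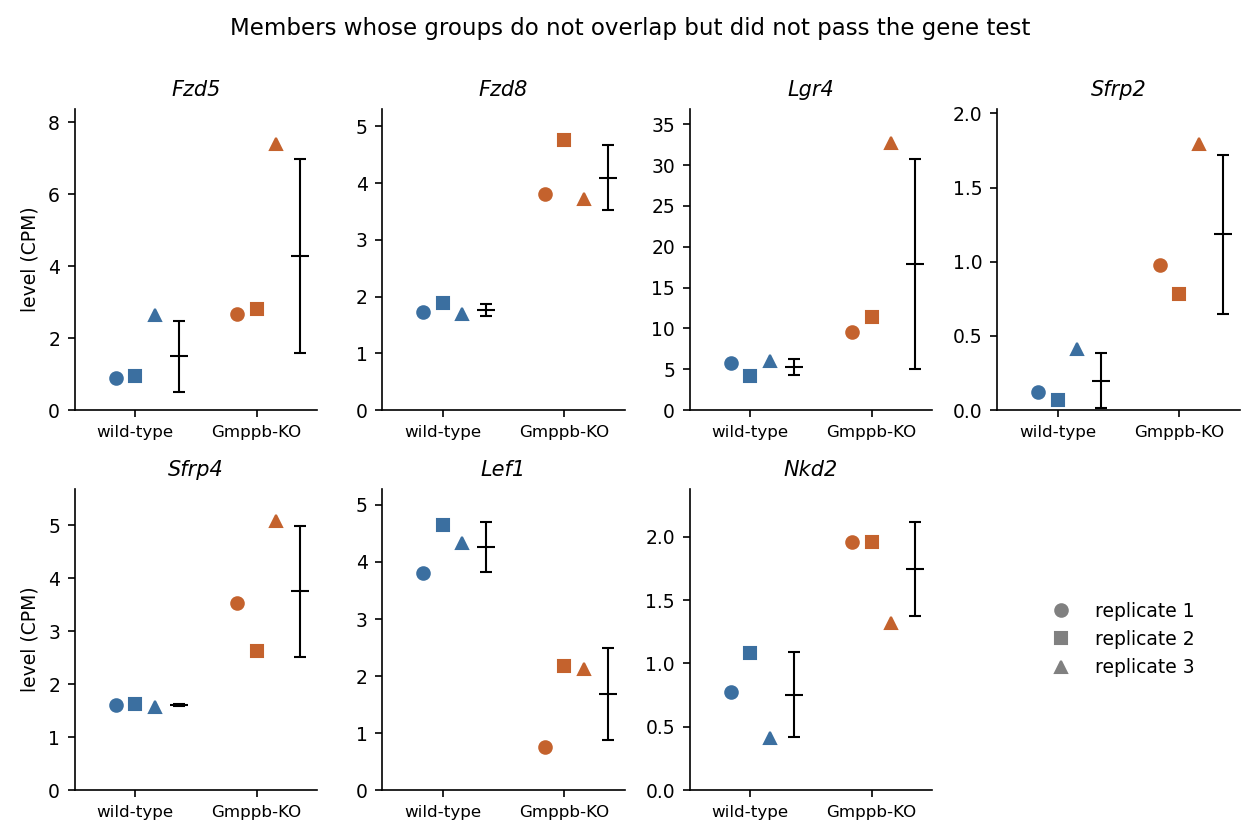
Level in CPM of the 7 members whose genotypes did not overlap but that did not pass the test, 1 panel a gene with its own axis from 0; symbols mark the replicates and the bars give the mean ± SD (n = 3). Lef1 is the 1 gene of the 7 that is lower in Gmppb-KO libraries, and Gmppb-KO replicate 3 is the highest value for Fzd5, Lgr4, Sfrp2 and Sfrp4.

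Both proteins that Wnt-producing cells need for secretion were expressed, and 1 of them fell. Porcn (ENSMUSG00000031169, chromosome X, 8193848 to 8206525) measured 13.7, 14.1 and 8.37 CPM over the wild-type libraries against 3.64, 4.54 and 4.24 CPM over the Gmppb-KO ones. Wild-type replicate 3 was the lowest of its group and still above the Gmppb-KO libraries. Porcn fell 2.90-fold (log2 fold change -1.54 ± 0.32, edgeR adjusted p = 0.0277). Library-size scaling ended this call, as did leaving out wild-type replicate 1 or 2 or Gmppb-KO replicate 1 or 2; adjusted p-values ran from 1.66e-04 to 0.154 over the alternatives. Wls, which carries the lipid-bearing Wnt proteins to the cell surface, stayed among the most abundant members, at 24.6 ± 4.66 FPKM in wild-type and 24.7 ± 6.27 FPKM in Gmppb-KO libraries. It measured 210, 171 and 260 CPM over the wild-type libraries against 188, 189 and 294 CPM over the Gmppb-KO ones, with overlapping groups. The log2 fold change of Wls was 0.07, with a 95% interval from -0.44 to 0.57, and its sign changed under 5 alternatives. Of 19 Wnt ligand genes 8 were tested, and 3 of them were lower, Wnt7b, Wnt10a and Wnt6. Over all tested genes 3.27% were lower. All 3 met the low-count filter in wild-type libraries alone, so the count of ligands is a description only. Wnt7b fell 73.2-fold, and Wnt10a had 1518 counts in wild-type and 1 in Gmppb-KO libraries together. Wnt6 fell 17.2-fold from between 1.76 and 2.56 CPM to between 0.109 and 0.141 CPM (edgeR adjusted p = 0.00267).

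The intracellular core of the pathway was expressed in both genotypes. None of its 7 members had groups that did not overlap, against 26.1% of all tested genes. With 7 genes this is a description only. Ctnnb1, which encodes beta-catenin, measured 79.0, 48.3 and 207 CPM over the wild-type libraries against 164, 149 and 293 CPM over the Gmppb-KO ones. Replicate 3 was the highest in both genotypes, and the wild-type libraries differed among themselves by more than the genotype means did (log2 fold change 0.86 ± 0.51, edgeR adjusted p = 0.365). Of the alternatives, only the replicate block called Ctnnb1. Ctnnb1 overlaps Ulk4 on the opposite strand over 14.6% of its exon bases, which bears on its count where strand was not used. The same holds for Dvl2, which overlaps Acadvl on the opposite strand over 18.3% of its exon bases. Acadvl had between 13.0 and 66.2 CPM in wild-type and between 42.2 and 56.0 CPM in Gmppb-KO libraries. Dvl1, which passes the signal from frizzled receptors to Axin, averaged 128 ± 24.4 CPM over the wild-type libraries and 142 ± 28.5 CPM over the Gmppb-KO ones (SD, n = 3 each).

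The scaffold Axin1 had 63.6 ± 6.34 and 59.2 ± 4.88 CPM in wild-type and Gmppb-KO libraries, and its 95% interval of the log2 fold change ran from -0.46 to 0.25. The intervals were -0.31 to 0.60 for Dvl1, -0.41 to 0.26 for Dvl2 and -0.32 to 0.68 for Dvl3. Apc, the largest scaffold of the complex, and the kinase gene Gsk3b had wider ones. Apc measured 7.72, 4.52 and 9.01 CPM over the wild-type libraries against 4.35, 12.2 and 44.4 CPM over the Gmppb-KO ones, with replicate 3 at 5.38 times the mean of the other 2. Gsk3b measured 28.3, 26.2 and 21.4 CPM over the wild-type libraries against 25.3, 27.0 and 71.0 CPM over the Gmppb-KO ones, and its log2 fold change went from 0.70 to -5.94e-04 without replicate 3. With 15753 and 9831 bases, Apc and Gsk3b are among the longest members.

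**Figure D5:**
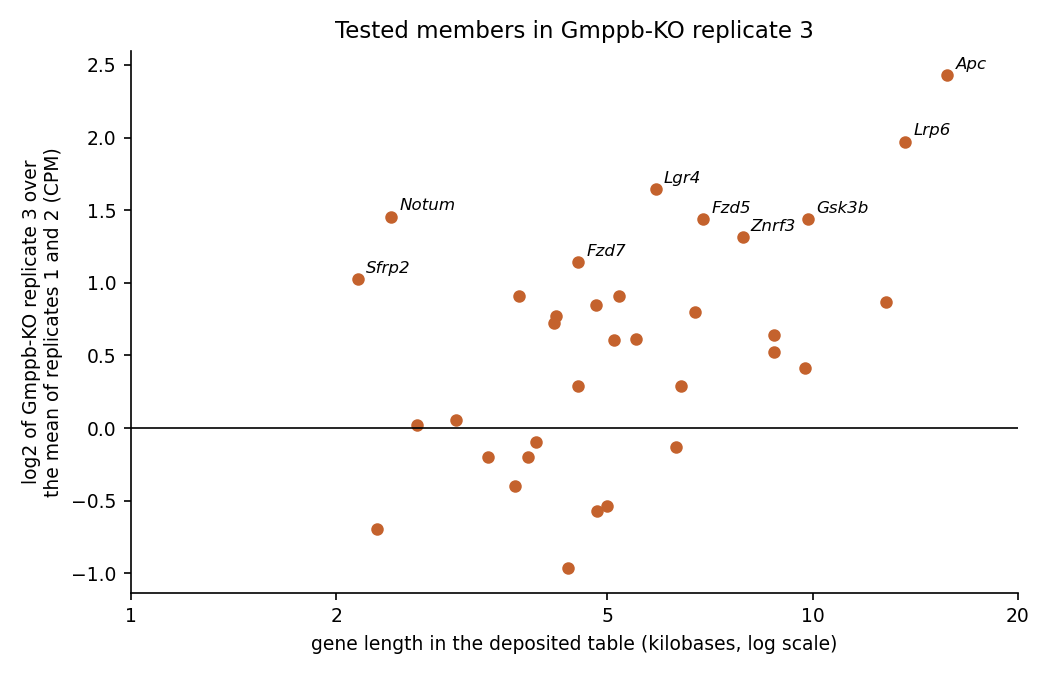
Gmppb-KO replicate 3 against the mean of Gmppb-KO replicates 1 and 2, as log2 of the CPM ratio, for the 34 tested members with reads in replicate 3 and in the others, by gene length on a log axis. Apc and Lrp6, the longest of them, are also the highest points, and the 9 members that differ more than 2-fold are named.

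In that library 9 of the 34 tested members with a ratio, 26.5%, lay more than 2-fold from the mean of the other 2 Gmppb-KO libraries, and all 9 were higher. Over all tested genes with a ratio it was 24.4% in either direction, and 38.3% among those over 6511 bases. With each library's length trend removed, an alternative chosen after seeing the data, 2 members were called higher and 6 lower. These 8 were the 7 members that passed and Lef1. Over all genes 1001 were called with the trend removed, against 715 in the main fit.

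Of the TCF/LEF factors, which carry beta-catenin to DNA, Tcf7 was the most abundant and Lef1 the only one whose groups were apart. Tcf7 measured 40.0, 31.0 and 49.2 CPM over the wild-type libraries against 44.2, 41.0 and 43.3 CPM over the Gmppb-KO ones, and the Gmppb-KO values lay inside the range of the wild-type values (log2 fold change 0.10 ± 0.22). Tcf7l1, known mainly as a repressor, had 16.5 ± 4.00 and 15.1 ± 1.77 CPM (log2 fold change -0.13 ± 0.27). Lef1 measured 3.80, 4.66 and 4.33 CPM over the wild-type libraries against 0.762, 2.18 and 2.12 CPM over the Gmppb-KO ones. Replicate 1 was the lowest Gmppb-KO value, and the log2 fold change was -1.33 ± 0.45 (edgeR adjusted p = 0.158). Lef1 was called by DESeq2 and with the length trend removed, with adjusted p-values from 0.0459 to 0.358 over the alternatives.

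The feedback targets, which many cells switch on when beta-catenin is active, were low or at 0 in both genotypes. Axin2, the most used reporter of the pathway, measured 11, 13 and 14 counts over the wild-type libraries against 11, 8 and 17 counts over the Gmppb-KO ones. The groups overlapped at 0.783 ± 0.116 and 0.616 ± 0.177 CPM, and the log2 fold change was -0.33 with a 95% interval from -1.24 to 0.57. Nkd2, a cytoplasmic inhibitor that binds dishevelled, measured 13, 16 and 7 counts over the wild-type libraries against 36, 35 and 28 counts over the Gmppb-KO ones. It was higher in every Gmppb-KO library, at 1.75 ± 0.369 against 0.754 ± 0.335 CPM, and did not pass (log2 fold change 1.21 ± 0.48, edgeR adjusted p = 0.216). Nkd1 had 3 counts, all in Gmppb-KO replicate 3, and Sp5 had none.

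Per length, 18 of the 47 members had a mean above 1 FPKM in wild-type and 22 in Gmppb-KO libraries. Of the 7 that passed, 3 reached this level in either genotype, namely Porcn, Notum and Rspo2. By mean FPKM the 5 highest members were the same in both genotypes, Fzd2, Dvl1, Wls, Ryk and Ctnnb1, and none of them passed. Ctnnb1 went from place 5 to place 1 by mean, with overlapping libraries. Its wild-type place rested on replicate 3, at 15.4, 9.68 and 39.6 FPKM over the wild-type libraries. Axin1 and Tcf7 were above it in wild-type replicates 1 and 2.

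Other genes of the pathway were read from lists of further components. Their counts stand beside the 5.59% of all tested genes that passed. Of 22 other receptor-level and secreted modulators, 12 were tested, 2 were higher and 1 was lower. Adgra2, a co-receptor for Wnt7 proteins, rose 2.88-fold from 46.6, 34.3 and 79.8 CPM to 162, 126 and 176 CPM in replicates 1, 2 and 3, a call that ended under library-size scaling or when any 1 library was left out, except wild-type replicate 3. Gpc4, a glypican, had 1 count in wild-type and 108 in Gmppb-KO libraries together. Gpc4 met the low-count filter in Gmppb-KO libraries alone, so the count of called modulators is a description only. Musk, the receptor kinase of the neuromuscular junction with a frizzled-like domain, fell 2.72-fold to between 1.79 and 2.78 CPM (edgeR adjusted p = 0.0485), a call that ended under library-size scaling or when any 1 library was left out, except Gmppb-KO replicate 3. Of 36 other cytoplasmic and nuclear genes of the beta-catenin branch, 34 were tested and 1 was called. This was Tle2, a corepressor of TCF factors, which fell 2.68-fold from between 7.90 and 10.7 CPM to between 3.26 and 3.82 CPM. The Tle2 call ended under library-size scaling or without wild-type replicate 1 or 2 or Gmppb-KO replicate 1 or 2.

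Of 34 further genes that have been described as beta-catenin targets, 23 were tested, 3 rose and 0 fell. Wisp2, a secreted CCN protein, rose 6.72-fold from 2.97, 2.56 and 2.93 CPM to 17.5, 22.9 and 16.5 CPM in replicates 1, 2 and 3 (edgeR adjusted p = 0.00130). Edn1, the precursor of the peptide endothelin-1, rose 9.77-fold to between 3.86 and 5.75 CPM. Edn1 met the low-count filter in Gmppb-KO libraries alone, so the count for this list is a description only. Gja1, the gap junction protein connexin 43, rose 2.26-fold from between 62.1 and 80.3 CPM to between 131 and 206 CPM, a call that ended under library-size scaling or without wild-type replicate 1 or 2. The cell cycle genes Myc and Ccnd1 did not pass, with log2 fold changes of 0.14 ± 0.19 and 0.72 ± 0.38. These genes answer to several pathways, and their counts stand beside the 5.59% of all tested genes that passed.

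Markers of other cell types also differed between the libraries, and their part in the values above was not tested. Over all tested genes 5.59% passed. Of 13 fibroblast and fibro-adipogenic markers 8 were tested, 2 were higher and 2 lower. Higher were Mfap5 (17.4-fold) and Dcn (5.11-fold), and lower were Pdgfrb (2.99-fold) and Osr1 (8.35-fold). The Dcn call ended without wild-type replicate 1, and that of Osr1 when any 1 library except Gmppb-KO replicate 1 was left out. The summed level was 1137 to 1285 CPM in wild-type and 1892 to 2288 CPM in Gmppb-KO libraries, and most of it came from Col3a1 and Ly6a, which did not pass, while Lum and Tcf21 had 0 counts in all 6. Of 8 adipocyte markers 2 of 4 tested were higher, Lpl and Fabp4, with Adipoq, Plin1 and Lep at 0 counts in all 6 libraries. The Fabp4 call ended when Gmppb-KO replicate 2 or wild-type replicate 1 was left out. The sum of the list was 37.8 to 49.2 CPM against 50.4 to 89.5 CPM. Within it, mean Lpl was 4.19 CPM in wild-type against 35.1 CPM in Gmppb-KO libraries, and mean Cebpa, which did not pass, was 25.8 against 13.7 CPM. Of 9 neural and Schwann cell markers 3 of 5 tested were lower, Ngfr, Nefl (4.35-fold) and Stmn2 (7.14-fold), with Sox10 at 0. Ngfr had 533, 547 and 416 counts over the wild-type libraries against 0, 3 and 2 over the Gmppb-KO ones. The sum of this list was 678 to 751 CPM against 246 to 407 CPM. Most of it came from Tubb3, at means of 465 and 279 CPM, which did not pass. Map2, with a log2 fold change of 0.47, did not pass either. Of 12 myoblast and muscle markers 4 of 11 tested were lower, Myod1, Pax7, Myog and Chrna1 (1.95-fold). The Chrna1 call ended under library-size scaling or without wild-type replicate 1 or 2 or Gmppb-KO replicate 1 or 2. Osr1, Myod1, Pax7 and Ngfr met the low-count filter in wild-type libraries alone, and Fabp4 in Gmppb-KO libraries alone. The counts of called markers are therefore a description only. None of the 6 tested osteoblast, smooth muscle, pericyte and leukocyte markers passed the edgeR test, and 1 of them, Cnn1, had an unadjusted p under 0.05. No endothelial marker had enough counts to be tested; Pecam1 and Cdh5 were at 0, Kdr had 2, 2 and 0 counts over the wild-type libraries against 10, 4 and 14 over the Gmppb-KO ones, and Tek had 5, 4 and 7 against 0, 1 and 4. In bulk RNA, fewer cells of a type and less RNA per cell cannot be told apart.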

How the data were processed

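The 6 RNA libraries of C2C12 cells, 3 per genotype, were grouped by sample title. The authors deposited 1 table with raw read counts and FPKM per gene and library, per the file headers. Per the submitters' processing notes, mm10 was the build, and featureCounts of Subread, HISAT2, FastQC and DESeq2 are listed. Which annotation was counted, and whether by strand, is not stated there. The deposited gene length was used for the length trends. The 201 loci without a name, 0.0699% to 0.195% of a library's counts, were left out.

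Counts went into the quasi-likelihood F test of edgeR 4.0.16 (R 4.3.3), 2-sided, with filterByExpr, TMM scaling and genotype as the only term, fitted over all 12786 genes that passed the filter, with Benjamini-Hochberg adjustment and a threshold of 0.05. The SE of a log2 fold change comes from the F statistic. Levels of 1 gene are CPM and levels between genes are the authors' FPKM, with SD over n = 3. A fold against a group at 0 is a bound at 3 counts over that group. Depth limits genes with few counts, and the exact intervals of count ratios and the bounds at 3 counts cover counting error only; the intervals of log2 fold changes come from the SE. Replicates of a group differed by far more than sampling noise. Exon overlaps come from GENCODE M21, in which 45 of the 47 members have the deposited start and end.

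The members and lists were chosen with earlier results of these data known, so no list was tested as a set. Values in every library are given for members that passed, for those whose groups did not overlap and for the most abundant of each role, and up to 4 called genes are named per further list. Myc and Ccnd1 were named outside this rule, after their values were seen. The alternatives were DESeq2 1.42.0, limma voom (limma 3.58.1), 2 other scalings, 2 other filters, a replicate block, leaving out each library, and, chosen after seeing the data, removal of each library's length trend. The edgeR steps were tested on simulated counts.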

Additional observations from a re-analysis of the deposited data

How the results depend on the processing

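Rspo2, Ror2 and Notum, 3 of the 7 members that passed, passed in each of the 14 alternatives, and 25 of the 36 tested members kept their sign in all of them. All 3 met the low-count filter only in the genotype where they were higher, and the alternatives reuse the same libraries. Library-size scaling called 1 member higher and 3 lower, and 3 genes of the further pathway lists higher, with 567 genes called in all. By limma voom 1 member was higher and 4 were lower, with 707 genes called in all. DESeq2 called 1295 genes in all. Whether the replicate numbers pair the samples could not be settled. The deviations of same-numbered libraries correlated at -0.179, 0.508 and 0.420. Wild-type replicate 1 correlated best with Gmppb-KO replicate 2. Wild-type replicates 2 and 3 each correlated best with the Gmppb-KO library of the same number. Deviations from a mean of 3 libraries are tied to each other, so these correlations cannot decide it. With a replicate block 1618 genes, 6 members higher (Fzd5, Lgr4, Sfrp2 and Ctnnb1 were added) and 11 pathway list genes higher were called. Leaving out 1 library gave 331 to 749 called genes, 1 to 2 members higher, 2 to 4 lower, and 3 to 7 pathway list genes higher.

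Log2 fold changes of 11 members changed sign, none of them past the threshold. Library-size scaling gave 0.0450 for Axin1, 0.0826 for Dvl2, 0.0134 for Fzd2 and 0.0105 for Tcf7l1. Wls was at -0.00981 under RLE scaling, -0.00705 without a filter and -0.23 with the length trend removed, which also gave -0.0221 for Dvl3 and -0.21 for Lrp6. Leaving out 1 library gave ranges that cross 0 for Dvl1 (-0.0307 to 0.259), Dvl3 (-0.0133 to 0.288), Gsk3b (-5.94e-04 to 0.931), Lrp6 (-0.615 to 0.721), Tcf7 (-0.0897 to 0.191), Tcf7l1 (-0.31 to 0.00674), Wls (-0.229 to 0.177) and Znrf3 (-0.235 to 0.658). The cause was not tested. The median log2 fold change of all genes was 0.106, and 0.266 under library-size scaling and 0.0296 under RLE scaling. With 3 libraries a group and under 100 counts for several members, a 2-fold difference can be missed.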

Other observations

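The branch of Wnt signalling that orients cells and acts through the cytoskeleton and calcium held 30 listed genes, of which 27 were tested, 1 was higher and 3 were lower in Gmppb-KO libraries. Over all tested genes 5.59% passed. Daam2, a formin that binds dishevelled, fell 8.03-fold from 13.7, 8.57 and 22.2 CPM in wild-type to 1.63, 1.85 and 2.03 CPM in Gmppb-KO replicates 1, 2 and 3 (edgeR adjusted p = 0.00452). The Gmppb-KO values were close together, and the wild-type values spread more widely above them. Prickle3, of the family of planar polarity proteins, fell 14.9-fold from 2.26, 1.28 and 2.93 CPM to 0.109, 0.112 and 0.189 CPM. Nfatc4, a calcium-regulated transcription factor, fell 11.8-fold from 4.40, 3.78 and 2.69 CPM to 0.272, 0.448 and 0.189 CPM. These 3 were lower in every alternative, with adjusted p-values of at most 0.0270, 0.0392 and 0.0293. Prickle3 and Nfatc4 met the low-count filter in wild-type libraries alone, so the count of called genes is a description only.

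Plcb1, a phospholipase activated by G proteins, rose 8.19-fold from 0.356, 0.270 and 0.761 CPM to 1.74, 2.91 and 6.93 CPM in replicates 1, 2 and 3. Plcb1 met the low-count filter in Gmppb-KO libraries alone. Its highest value was in Gmppb-KO replicate 3, and the call was lost without that library, without wild-type replicate 1 or 2 or Gmppb-KO replicate 2, under library-size scaling and by limma voom (adjusted p-values from 3.84e-04 to 0.164 over the alternatives).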
